A study of Rattus norvegicus with 2 samples.

Results

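Molecular chaperones and folding enzymes are the gene set described here, in hearts of male Dahl salt-sensitive (DS) rats aged 17 weeks. The set holds every probe set annotated to a single heat shock protein (Hspa to Hspe, Hsph and Hsp90), J-domain protein (Dnaj), cytosolic chaperonin (Cct), FK506-binding protein (Fkbp), cyclophilin (Ppia to Ppih) or protein disulfide isomerase (Pdia) gene, or to St13, Stip1 or Canx. Probe sets shared by Hsp90aa1 and its pseudogene Hsp90aa1-ps17 were added. These rules gave 86 of the 8740 probe sets without controls, for 46 of 4737 genes. DS rats are an inbred strain in which dietary salt raises blood pressure. The rats of 1 array were fed high salt and are labelled as having chronic heart failure, and those of the other array were fed low salt, with no condition given. All animals shared strain, sex and age. Whether an RNA came from 1 animal or a pool, and which chamber it came from, is not given in the sources used here.

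Chaperones bind unfolded proteins and help them reach or keep their shape. In the cytosol, Hsp70 proteins with J-domain partners receive new or damaged chains, and Hsp90 with its co-chaperones finishes kinases and steroid receptors. Small heat shock proteins hold unfolded chains without using ATP and are abundant in heart muscle, where they associate with desmin and the sarcomere. Mitochondria and the endoplasmic reticulum each have their own Hsp70. The heat shock response, through heat shock factor, and the unfolded protein response drive chaperone genes from short promoter elements.

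The promoter letters these responses read are shown for 3 members whose values are given further on. They are 250 bases upstream of the RefSeq start (build GRCr8), 5′ to 3′ on the gene's strand. Capitals in the first mark overlapping matches to the heat shock element, and in the other two matches to the endoplasmic reticulum stress element. Hspe1 lies at chr9:64084077-64084326 (plus strand), Hspa5 at chr3:38452766-38453015 (plus strand) and Hsp90b1 at chr7:23012294-23012543 (minus strand).
Hspe1: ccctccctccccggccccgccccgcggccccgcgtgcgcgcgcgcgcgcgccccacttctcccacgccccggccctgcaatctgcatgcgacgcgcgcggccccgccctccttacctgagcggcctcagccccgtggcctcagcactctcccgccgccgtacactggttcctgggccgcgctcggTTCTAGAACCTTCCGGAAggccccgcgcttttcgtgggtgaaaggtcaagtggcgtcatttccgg
Hspa5: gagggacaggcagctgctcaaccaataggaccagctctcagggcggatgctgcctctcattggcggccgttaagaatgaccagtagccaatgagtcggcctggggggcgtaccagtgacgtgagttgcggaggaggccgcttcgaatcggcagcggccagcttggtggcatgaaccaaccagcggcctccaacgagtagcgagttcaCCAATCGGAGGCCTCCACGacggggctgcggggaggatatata
Hsp90b1: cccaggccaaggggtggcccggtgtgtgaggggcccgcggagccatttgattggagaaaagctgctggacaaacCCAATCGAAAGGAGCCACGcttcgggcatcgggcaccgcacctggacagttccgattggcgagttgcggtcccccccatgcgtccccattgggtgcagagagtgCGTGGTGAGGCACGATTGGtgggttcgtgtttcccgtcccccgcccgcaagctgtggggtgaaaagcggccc
Hspd1 and Hspe1, which encode the mitochondrial chaperonin and its lid, are neighbours that start 290 bases apart and run in opposite directions, so the Hspe1 sequence is also part of the Hspd1 promoter. The heat shock element was searched as GAANNTTCNNGAA and its reverse complement TTCNNGAANNTTC. It occurred in 3 of the 39 member promoters in the table (Hspd1, Hspe1 and Hsph1) and in 0.663% of all 33469 windows of the same length. The matches of Hspd1 and Hspe1 are the same bases, counted for each gene. The stress element was searched as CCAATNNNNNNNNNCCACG and its reverse complement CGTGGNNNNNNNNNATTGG. It occurred in Canx, Hspa5 and, in 2 places, Hsp90b1, and in 0.0657% of all windows. A match describes letters and not occupancy by a factor. The other 7 member genes, Hsp90aa1 and Hspb2 among them, were not matched by symbol, so their promoters were not searched.

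Most measured chaperone genes differed by less than 1.5-fold between the hearts, as did most of all genes measured. Hsp90aa1, which encodes the stress-inducible Hsp90 alpha, was the one measured member past 2-fold. Intensities below 0 set a noise floor of 126.4, the 95th percentile of their size, and both values were raised to it before the high-salt value was divided by the low-salt value. In their brightest probe set, 25 member genes reached that floor on both arrays and 1, Fkbp4, on the low-salt array alone. The remaining 20 stayed under it in every probe set. Of the 26 measured genes, 1 was at least 2-fold higher (over all 1217 genes measured, 3.62% were) and 0 were at least 2-fold lower (1.89%). At 1.5-fold the counts were 1 higher and 1 lower, against 9.37% and 9.45% of all genes. The median log2 ratio of the members was -0.08 (quartiles -0.30 and 0.20), beside -0.04 (quartiles -0.28 and 0.22) for all genes. Each diet had a single array, so no replicate spread and no test could be had, and each difference compares these 2 arrays. A partial error came from genes with several probe sets at the floor on both arrays: their log2 ratios varied with a pooled SD of 0.22 over 232 genes, and 0.25 over the 14 member genes. The log2 ratio lay further than 0.22 from 0 for 13 of the 26 members and for 54.6% of all genes.

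**Figure D1:**
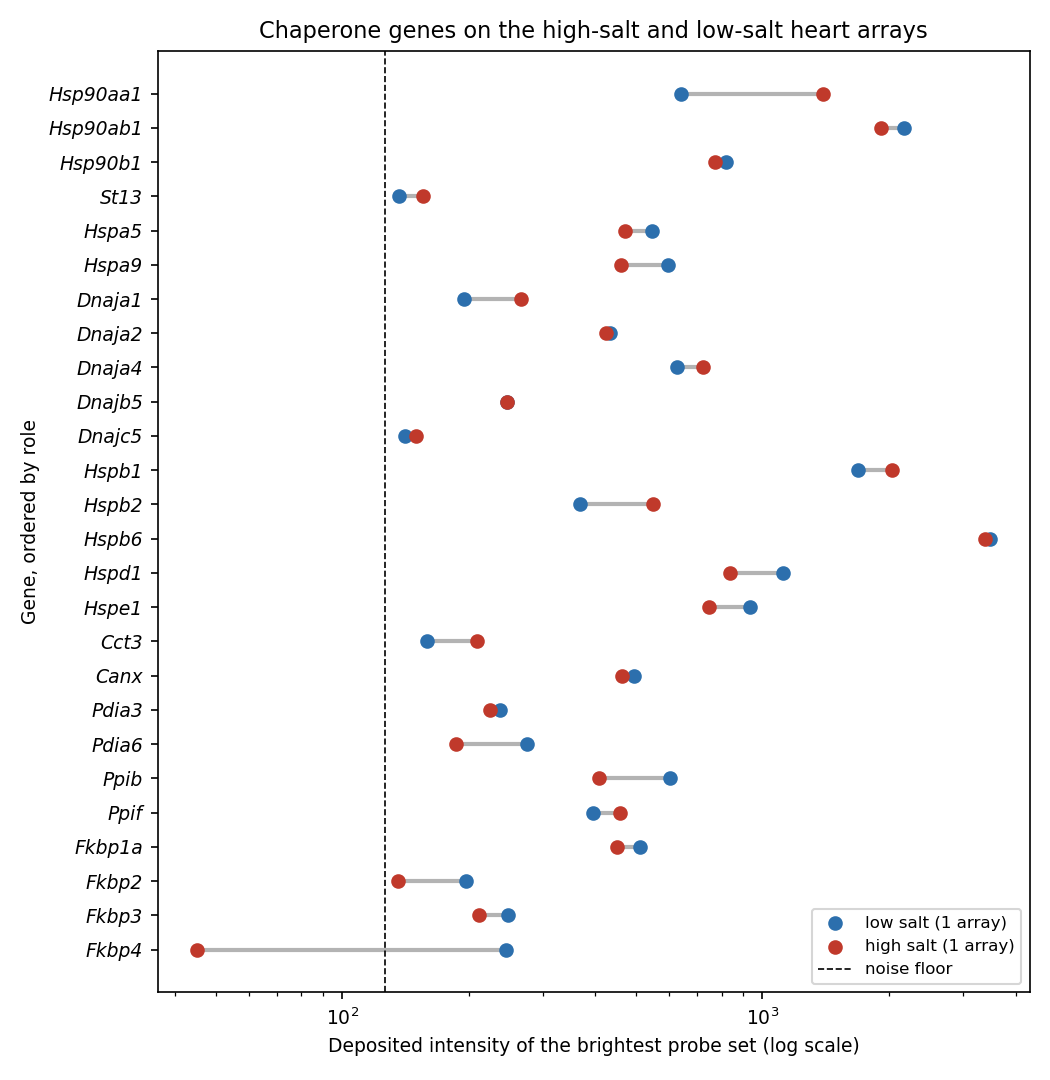
Deposited intensity (log axis) of the brightest probe set of each of the 26 measured chaperone genes on the high-salt array (red) and the low-salt array (blue), with the noise floor of 126.4 as a dashed line. The widest gaps are those of Hsp90aa1, at 1395.6 against 639.5, and Fkbp4, at 45.2 against 245.7.

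Cells of the heart were read together, so more RNA per cell and more cells of a type cannot be told apart. Of 8 cardiomyocyte markers that reached the floor, 2 read higher and 6 lower, and the summed intensity of all 9 on the array was 61903.2 on the high-salt array and 65929.6 on the other. Every red blood cell marker read (3 of 3) passed 2-fold upward in its brightest probe set, at 8158.4 against 3327.0 summed. Most of these sums was Hbb, at 6982.3 against 2910.5. For Alas2 and Slc4a1 the low-salt value lay under the floor, and another Slc4a1 probe set read 168.3 against 174.8. Fibroblast markers read higher for 4 of 6 measured, at 6635.1 against 5416.1 over all 8. The leukocyte markers at the floor were Lyz2, higher, and Cd74, lower, with sums of 1146.7 and 2052.8 over 5. No endothelial marker and 1 smooth muscle marker reached the floor. The part of these cells in the chaperone values was not tested.

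The Hsp90 genes parted by isoform. The brighter probe set shared by Hsp90aa1 and its pseudogene read 1395.6 after high salt and 639.5 after low salt, 2.18-fold higher (log2 ratio 1.13). The other, from a different transcript record, read 334.5 against 149.1, or 2.24-fold. Hsp90aa1 ranked 34th from the top of 1217 genes. Transcripts of the pseudogene, if there are any, cannot be told apart from those of Hsp90aa1 by these probe sets. Hsp90ab1, the constitutive cytosolic isoform, read 1909.3 against 2165.7 in its brightest probe set. Its other 3 read 1941.7 against 2073.3, 1369.8 against 1568.9 and 390.6 against 473.4. All 4 were slightly lower, by log2 ratios of -0.28 to -0.09, and did not overlap those of Hsp90aa1. The ratios of both genes differed by 1.31 on the log2 scale, or 2.48-fold. The SD of 0.22 among probe sets does not cover differences between animals or arrays, so it gives no error for this value. Hsp90b1, the isoform of the endoplasmic reticulum, read 770.5 against 818.5 and, in a dimmer probe set, 180.1 against 232.7.

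Fkbp4 had the lowest ratio of the measured members, as a bound. It encodes FKBP52, an immunophilin that binds Hsp90 and assists steroid receptors. Its brightest probe set read 45.2 after high salt and 245.7 after low salt. The others read 25.1 against 133.4 and 19.7 against 109.3, and these 2 carry the same expressed-sequence record, so they are not independent. Every high-salt value lay under the noise floor, and every low-salt value was above every high-salt value. The brightest set was, with both values held to the noise floor, at least 1.94-fold lower. Because the high-salt readings lay within the noise, the size of the difference beyond this bound is not known. The second probe set at the floor gave a bound of only 1.06-fold lower. Hsp90aa1 and Fkbp4 had the highest and lowest ratios of the measured members, 2.08 apart on the log2 scale with Fkbp4 at its bound. Opposite directions are part of being these extremes, and a link between the genes was not tested.

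Other partners of Hsp90 were read close to or under the noise floor, apart from Cdc37. St13, the Hsp70-interacting protein Hip, read 155.7 against 136.6. Stip1, the adaptor Hop that joins Hsp70 to Hsp90, stayed under the floor at 39.4 against 69.3. Cdc37, the kinase co-chaperone outside the rule, read 659.0 against 777.7 and 206.0 against 243.4 in its 2 probe sets. Both Cdc37 readings were about equally lower, at log2 ratios of -0.24. Chordc1, an Hsp90 co-chaperone induced by heat, read 110.0 against 151.9, with the high-salt value under the floor.

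**Figure D2:**
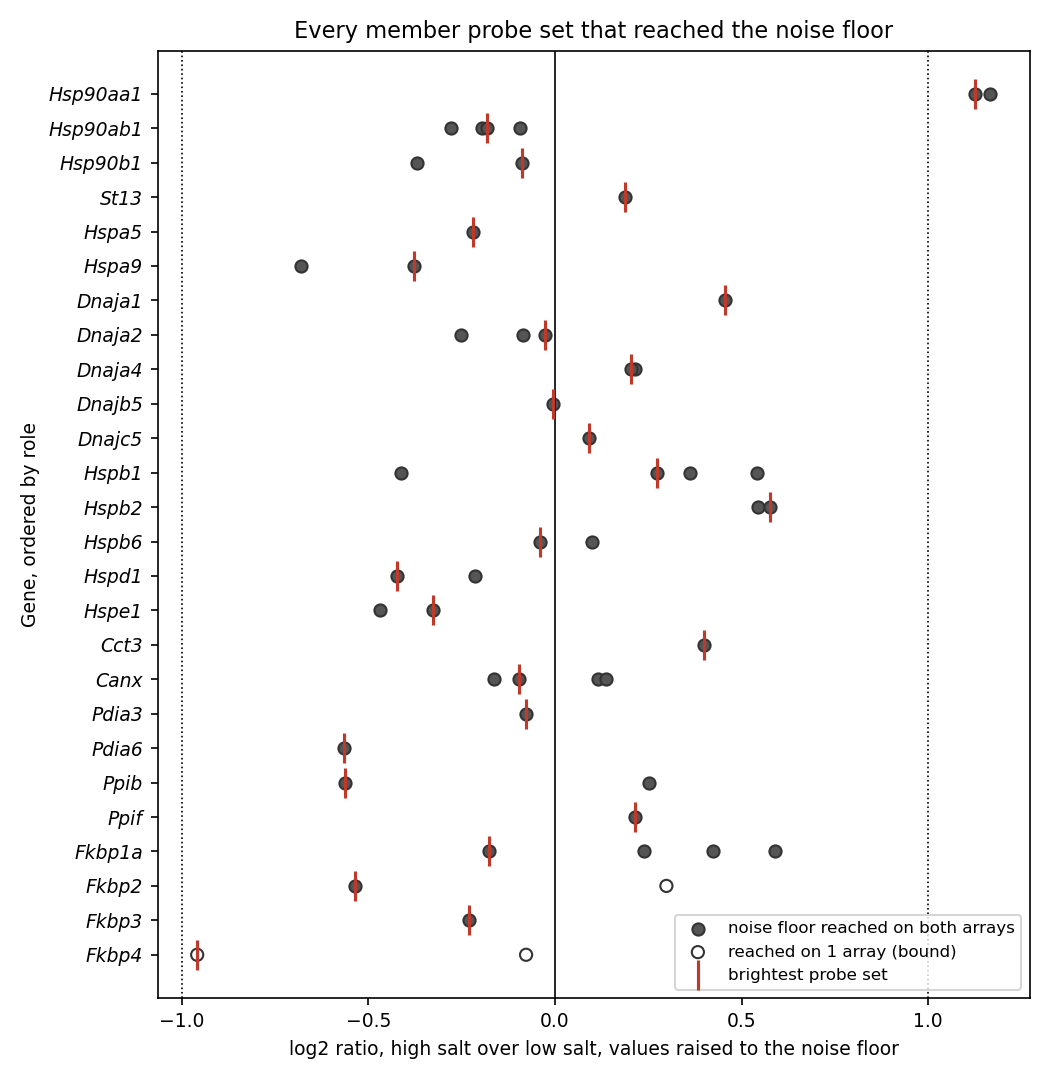
log2 of the high-salt over the low-salt value, both values raised to the noise floor, for each of the 51 member probe sets that reached the floor on an array, by gene. Filled points reached it on both arrays and open points on 1, red bars mark the brightest probe set of a gene, and dotted lines mark 2-fold; both Hsp90aa1 points lie beyond the upper line at 1.13 and 1.17.

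Among Hsp70 chaperones the 2 measured genes both read lower. Hspa5, the endoplasmic reticulum Hsp70 known as BiP, read 470.5 against 547.4 in the probe set at the floor, 1.16-fold lower. Hspa9, the mitochondrial Hsp70 mortalin, read 459.5 against 597.1 and 147.4 against 236.3, or 1.30-fold and 1.60-fold lower. Both Hspa9 probe sets thus pointed the same way. The inducible Hsp70 genes were dim. Hspa1a read 19.2 against 75.5, and 4 probe sets shared by Hspa1a and Hspa1b, outside the rule, had intensities of at most 68.3 on either array. The constitutive Hsp70 gene Hspa8 was read by 2 probe sets it shares with Haus8l2, also outside the rule. They read 1642.7 against 1512.2 and 1991.2 against 1875.4, within the spread between probe sets.

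J-domain proteins, which deliver clients to Hsp70 and stimulate its ATPase, numbered 11 genes, 5 of them measured. Dnaja1 read 267.0 against 194.8, 1.37-fold higher, with its other probe set under the floor. Dnaja4 was higher in both probe sets, at 720.1 against 624.9 and 585.9 against 504.8. Dnaja2 read 425.0 against 433.3, 352.5 against 374.1 and 156.0 against 185.9. Dnajb5 read 246.4 against 247.2, and Dnajc5, the cysteine string protein of secretory vesicles, 149.9 against 140.8. In their brightest probe sets, Dnaja1 alone lay beyond the SD of 0.22, as did the dimmest of the Dnaja2 probe sets at -0.25. The sign of Dnaja2 and of Dnajb5 changed with the scaling of the arrays.

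Of the small heat shock proteins, Hspb2 read higher, Hspb1 higher in most probe sets, and Hspb6 nearly the same on both arrays. Hspb2, a partner of the myotonic dystrophy kinase, was higher in both probe sets, at 548.7 against 368.0 (1.49-fold) and 218.5 against 149.9 (1.46-fold). Hspb1, the actin-binding protein Hsp27 (Hsp25 in rodents), read 2037.2 against 1685.1, 1747.9 against 1359.2 and 709.8 against 488.0, or 1.21-fold to 1.45-fold higher. The dimmest Hspb1 probe set, the only one whose name carries no mark of sequence shared among probe sets or genes, went the other way at 187.1 against 249.2. The probe set at 1747.9 against 1359.2 carries the same sequence record, so probe sets of a single record disagreed. A probe set shared by Hspb1 and Asb2 read 1272.3 against 935.1. Hspb6, the heart's Hsp20, read 3386.2 against 3479.5 and 2552.5 against 2383.2, so its probe sets disagreed by less than 0.22 on the log2 scale. The brightest one had a log2 ratio of -0.04 as deposited, and of 0.0075, 0.0057 and 0.015 after median, quantile and loess scaling. These values all lie within the SD of 0.22, so Hspb6 had no settled direction. Cryab, which encodes alpha-B crystallin and is the neighbour of Hspb2 in the RefSeq table, read 5545.2 against 4981.0 and 4814.1 against 4164.0. Its log2 ratios of 0.15 and 0.21 were below the 0.54 and 0.58 of Hspb2.

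The mitochondrial chaperonin genes, whose shared promoter is printed above, read lower in all 4 probe sets. Hspd1, which encodes Hsp60, read 836.4 against 1120.8 and 690.8 against 800.8, 1.34-fold and 1.16-fold lower. Hspe1, which encodes the Hsp10 lid, read 744.8 against 933.7 and 625.7 against 865.5, 1.25-fold and 1.38-fold lower. In their brightest probe sets the neighbours differed from each other by -0.10 on the log2 scale (Hspd1 minus Hspe1), less than the SD of 0.22. Of the cytosolic chaperonin, a ring that folds actin and tubulin, the measured subunit Cct3 read 209.6 against 159.0, 1.32-fold higher, and Cct6a was dim.

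Among folding genes of the endoplasmic reticulum, Pdia6 read lower and Pdia3 differed little, while Canx and Ppib had probe sets in both directions. Pdia6, a disulfide isomerase, read 186.2 against 275.3, 1.48-fold lower in its only probe set. Pdia3, the isomerase of the calnexin cycle, read 225.1 against 237.5, and its sign changed with loess scaling. Canx, the lectin chaperone calnexin, read 462.6 against 494.2 and 334.2 against 374.0, but 332.4 against 302.6 and 201.4 against 186.0 in its other probe sets at the floor. Ppib, cyclophilin B, read 408.9 against 603.9 in one probe set and 328.7 against 276.0 in another. Canx and Ppib therefore have no settled direction.

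The other prolyl isomerases also went both ways. Ppif, cyclophilin D of the mitochondrial permeability pore, read 459.3 against 396.1, 1.16-fold higher. Fkbp1a, which encodes FKBP12, a binding partner of the ryanodine receptor, read 451.6 against 510.2 in its brightest probe set. Its other 3 were higher, at 425.3 against 317.3, 392.6 against 260.7 and 346.2 against 293.4. Fkbp1b, the calstabin more tightly tied to the cardiac receptor, was not read above the floor. Fkbp2, of the endoplasmic reticulum, likewise split, at 135.8 against 196.8 and 155.5 against 78.2. The value of 78.2 lay under the floor, so the second ratio is a bound of 1.23-fold higher. Fkbp3, a nuclear isomerase, read 211.4 against 248.1. Cyclophilin A (Ppia) was read by 4 probe sets shared with 2 related loci, outside the rule, at log2 ratios of -0.19 to 0.02.

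Of the 16 member genes with several probe sets at the floor, 10 had all of them on one side. The same share over all genes was not counted, so this number is a description and not a trait of the members. Hsp90aa1, Hspb2 and Dnaja4 were higher in each, and Hsp90ab1, Hsp90b1, Hspa9, Hspd1, Hspe1, Dnaja2 and Fkbp4 lower in each, although the brightest Dnaja2 probe set changed sign with the scaling. For Hspb2, Hspe1 and Fkbp4, and for part of the Dnaja2 probe sets, a probe set and its partner carry the same sequence record, so their agreement is not independent. The other 6 were Canx, Fkbp1a, Fkbp2, Hspb1, Hspb6 and Ppib, which had probe sets in both directions.

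**Figure D3:**
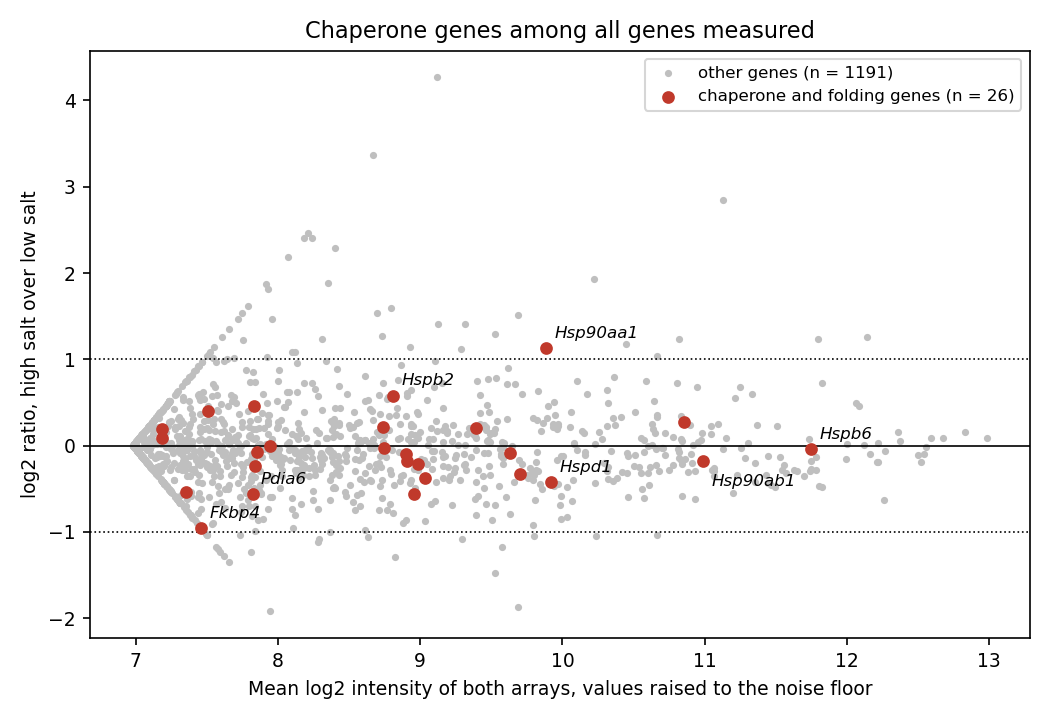
log2 of the high-salt over the low-salt value against mean log2 intensity, both from values raised to the noise floor, for 26 chaperone and folding genes (red) and 1191 other genes (grey). Hsp90aa1 is the only red point beyond the dotted 2-fold lines, and the other red points lie among the grey ones.

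Grouped by the compartment of the protein, with 12 other chaperone genes added, folding genes of mitochondria had a lower median ratio than those of the cytosol. The grouping was made after the values were seen and is a description. Of 7 mitochondrial genes, 6 had a ratio below 1, with a median log2 ratio of -0.41, and 9 of their 10 probe sets were lower. Beside Hspd1, Hspe1 and Hspa9 these were Grpel1, the nucleotide exchange factor of Hspa9 (402.4 against 533.4), Trap1, the mitochondrial Hsp90 (149.0 against 224.7), and Clpb, a disaggregase (126.0 against 195.5, at least 1.55-fold lower). Ppif was the one above 1. In the endoplasmic reticulum, 9 of 10 genes were lower with a median of -0.20, but 12 of 18 probe sets. The genes outside the rule there were Calr, which encodes calreticulin (842.8 against 958.1), the collagen chaperone Serpinh1 (200.3 against 275.3) and P4hb (639.2 against 636.8). A dimmer probe set at the floor on both arrays read 293.5 against 212.1 for P4hb, 1.38-fold higher. For Calr such a probe set read 296.7 against 417.8, 1.41-fold lower. In the cytosol and nucleus, 10 of 21 were lower and the median was 0.09. Over the array scalings the number lower ran from 8 to 10 in the endoplasmic reticulum and from 7 to 10 in the cytosol, and was 6 throughout in mitochondria. Over all 1217 genes, 54.5% had a ratio below 1. Over the alternatives the medians ran from -0.42 to -0.36 for mitochondria, from -0.32 to -0.09 for the endoplasmic reticulum and from -0.0047 to 0.16 for the cytosol.

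**Figure D4:**
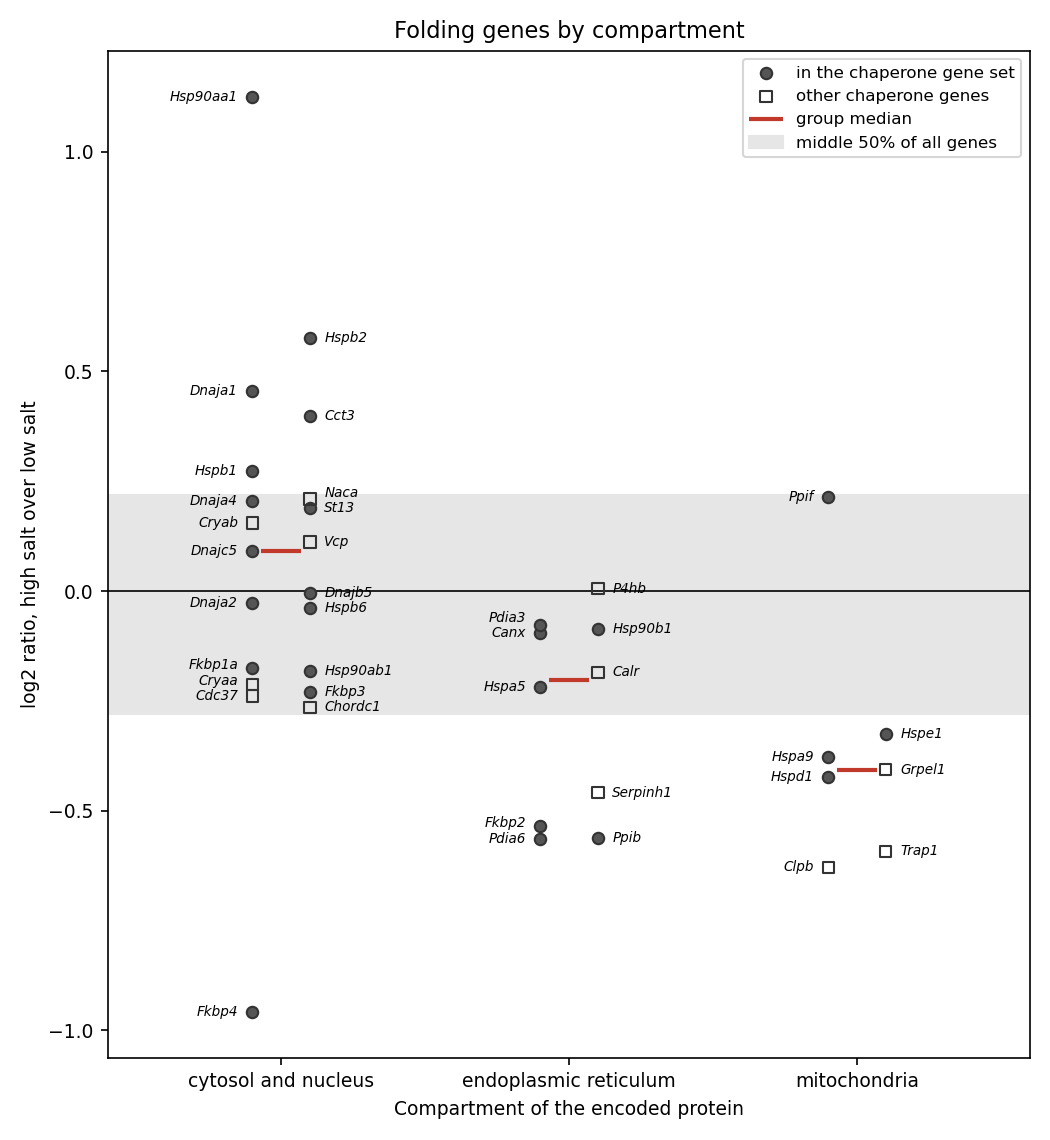
log2 of the high-salt over the low-salt value (brightest probe set, noise floor applied) of folding genes by the compartment of their protein, with filled circles for the gene set, open squares for other chaperone genes, red bars for group medians and a grey band for the middle 50% of all genes. The 6 mitochondrial genes other than Ppif lie below the band, while cytosolic genes span from Fkbp4 at -0.96 to Hsp90aa1 at 1.13.

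Of the 20 other chaperones and co-chaperones on the array, 13 were measured and 0 passed 2-fold in either direction, with a median log2 ratio of -0.21. Clu, which encodes the secreted chaperone clusterin, had the highest ratio of them at 4666.5 against 2820.9, 1.65-fold. Clpb, Trap1 and Serpinh1 had the lowest. Of 10 regulators and targets of the heat shock and endoplasmic reticulum stress responses, 3 were measured and 0 passed 2-fold. Hsf1, the master regulator of the heat shock response, read 253.3 against 365.1 in the 1 of its 3 probe sets at the floor. Eif2s1, the translation factor phosphorylated under stress, read 176.2 against 147.2. Ppp1r15a, which reverses that phosphorylation, read 130.8 against 94.9. The low-salt value of Ppp1r15a lay under the floor, so its ratio is a bound of 1.03-fold higher. Its other probe set stayed under the floor on both arrays.

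The 20 dim genes ranged from -46.0 to 76.6 after high salt and from -48.4 to 103.9 after low salt over 24 probe sets. They were Cct6a, Dnaja3, Dnajb1, Dnajb9, Dnajb14, Dnajc1, Dnajc17, Fkbp1b, Fkbp11, Hspa1a, Hspa1l, Hspa2, Hspa4, Hspa13, Hsph1, Pdia2, Pdia4, Ppid, Ppig and Stip1. Values this low have no reliable order. At a lower floor of 10.9 (the 40th percentile of all values), 40 member genes gave a ratio, of which 1 was at least 2-fold higher (7.33% of 3452 genes) and 2 at least 2-fold lower (7.27%). The lower ones were Fkbp4 and Hspa1a. At 1.5-fold, 1 was higher, or 2.5%, beside 14.1% of all genes, and 6 were lower, or 15.0%, beside 17.4%. Of these 6, the other 4, named after their values were seen, were Dnajb1 at 29.8 against 55.6, Hsph1 at 46.3 against 71.8, Dnajc17 at 1.1 against 16.9 and Stip1. All 4 lay under the noise floor on both arrays.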

How the data were processed

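Biotin-labelled cRNA from total RNA was read on 1-colour arrays, per the labels' protocols. The authors deposited linear intensities, some below 0, with 1 value for each probe set on an array. How they were computed is not given in the sources used here. Trimmed means (2%) differed by 0.072%, so intensities were used as deposited. Gene names came from the platform annotation dated 2016: of 8740, 7006 had 1 symbol, 308 several and 1426 none. The probe set with the highest mean log2 value stood for a gene. A ratio with 1 value under the noise floor is a bound, and with both under it there is none. Genes measured and not past 2-fold in a direction were counted as neither. Member genes that reached the floor were named; of other lists, those past 2-fold or the 4 with the largest ratios, and others after their values were seen. Members and lists were chosen with earlier results of these data known. The ratio and count steps were tested on simulated data. The number of arrays, 1 per diet, limits the precision. Tools were pandas 2.3.3 and numpy 2.4.6 in Python 3.11.15, with statsmodels 0.14.6, scipy 1.17.1 and matplotlib 3.10.9. Alternatives were 4 array scalings, 3 floors, 2 probe set rules, probe set type, membership and thresholds of 1.5-fold and 3-fold. No genome of the array's build was used.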

Additional observations from a re-analysis of the deposited data

How the results depend on the processing

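The median log2 ratio of the member genes ran from -0.15 to -0.02 over 11 alternatives and stayed within the probe set SD of its reported value in each. The count of genes at least 2-fold higher, 1 as reported, was 2 with each probe set counted, 0 without the probe sets shared by Hsp90aa1 and its pseudogene, and 0 at 3-fold. The count at least 2-fold lower, 0 as reported, was 2 at the lower floor and 1 at 1.5-fold. Under the other alternatives these counts were as reported. Of 222 values of single genes under alternatives, 215 stayed within the SD of 0.22 and 7 moved further. Many could not move, such as the median over probe sets for a gene with a single one. Hsp90aa1, the only gene past 2-fold, kept its sign wherever its probe sets were used. Those that moved were Fkbp1a (0.33 as the median over probe sets), Fkbp2 (-0.12) and Ppib (-0.16) under the same rule, Fkbp4 (-0.52 there and -2.44 at the lower floor), Hspb1 (-0.41 without probe sets that can share sequence) and Pdia6 (-0.02 with the noise floor at the 99th percentile, 271.2). The lower and higher noise floors change these values by construction. The sign of Dnaja2, Dnajb5, Hspb6 and Pdia3 changed among the array scalings. That of Canx, Fkbp1a and Hspb6 changed with the median over probe sets. Hspb1, at 0.27 as reported, changed sign without probe sets that can share sequence. No paired analysis was possible because each diet had 1 array. Signal over background limits the 20 dim genes and Fkbp4.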

Other observations

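Of 12 genes on the array whose products depend on Hsp90, mostly receptors and kinases, 2 reached the noise floor on at least 1 array. In all, 1217 of 4737 genes did so, and 0 of the 2 passed 2-fold. Akt1, a survival kinase, read 511.8 after high salt and 468.2 after low salt in its brightest probe set and 333.2 against 375.5 in another, so its direction was not settled. Cdk4, a cell cycle kinase, read 118.5 against 149.8, with the high-salt value under the floor, so its ratio is a bound. Nr3c1, the glucocorticoid receptor that Fkbp4 and Hsp90 assist, had intensities of at most 19.7 in its 3 probe sets.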
